A study of Mus musculus and Homo sapiens with 10 samples.

Results

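In K562 cells, 8635 of the 72662 islands of H3K122ac met an island of H3K4me1 and none of H3K27ac. An island is a stretch of chromatin in which sequencing reads from an immunoprecipitated mark exceed those of a background library. The 8635 islands were chosen by the calls in 3 deposited lists: H3K122ac islands shorter than 10000 bp that share at least 1 bp with an H3K4me1 island and no base with an H3K27ac island. They made up 11.9% of the H3K122ac list by number, 6.71% of its length (12.8 of 191 Mb) and 3.28% of its reads (599394 reads). Because calls for all 3 marks chose the islands, the folds given here are descriptions and no test was made.

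H3K122 lies in the globular core of histone H3, on the lateral surface where the histone touches DNA, and its acetylation is known for loosening that contact. H3K27ac lies on the histone tail and is the mark most often used to tell active enhancers from inactive ones, while H3K4me1 marks enhancers whether or not they are active. Enhancers with H3K4me1 and without H3K27ac are usually called primed or poised.

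The series holds 10 chromatin libraries, of which 4 come from K562, an established human erythroleukaemia line that carries the BCR-ABL1 fusion, here at passage 14. Per the labels, chromatin of these cells was cut with micrococcal nuclease and precipitated with antibodies to H3K122ac, H3K27ac (ab4729) or H3K4me1 (ab8895), and a library labelled input was made as well. The other 6 libraries come from mouse embryonic stem cells and were not used here. No treatment of K562 is named, and there was 1 library per mark, so no value has a replicate. The H3K122ac, H3K27ac and H3K4me1 lists held 18283729, 34195325 and 35562145 reads inside islands, and the library ratio, the constant by which the ChIP-to-background ratio is divided in each list, was 0.258, 0.688 and 0.581. H3K122ac was the smallest by both measures. Fold is the authors' ratio of ChIP to background reads after division by that library ratio, and it is compared here only within a list unless the islands are identical.

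The H3K27ac-negative, H3K4me1-positive islands had the lowest median H3K122ac fold of the 4 classes that the other marks define. Their median H3K122ac fold was 3.23 (exact binomial 95% interval of the median 3.18 to 3.28), against 5.93 (5.88 to 5.98) in the 52153 islands with H3K4me1 and H3K27ac, 5.20 (4.99 to 5.46) in the 3096 with H3K27ac alone and 4.55 (4.45 to 4.67) in the 7236 with neither mark, all shorter than 10000 bp. The log2 difference between the first 2 of these classes was -0.88. The intervals cover the spread of islands in 1 library, and neighbouring islands are not independent. The middle 50% of the 8635 islands had H3K122ac folds of 2.26 to 4.91, and the whole range ran from 1.21 to 121. A fold of 5 or more was reached by 24.2% of them, against 53.1% of all H3K122ac islands, and a fold of 10 or more by 4.47%, against 22.6% of all. Density of H3K122ac reads, which is not divided by background, had a median of 49.0 per kb in these islands and 79.3 per kb in islands with both other marks. Islands with neither mark had 53.3 reads per kb, but density differed with length. At 200 to 600, 800 to 1200, 1400 to 2000 and 2200 to 4000 bp these islands had 73.3, 53.0, 40.0 and 33.4 reads per kb. Islands with neither mark had 72.5, 51.2, 37.5 and 31.3 there. At 4200 to 9800 bp the order was the other way, at 33.3 and 35.2. From the shortest to the longest range, median background was 66.7, 59.2, 55, 55 and 62.5 reads per kb in the islands without H3K27ac but with H3K4me1. It was 48.3, 41.2, 45, 49.1 and 57.5 in islands with neither mark. Excess reads per kb, which subtract background, had medians of 128 and 158 in these 2 classes over all lengths.

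**Figure D1:**
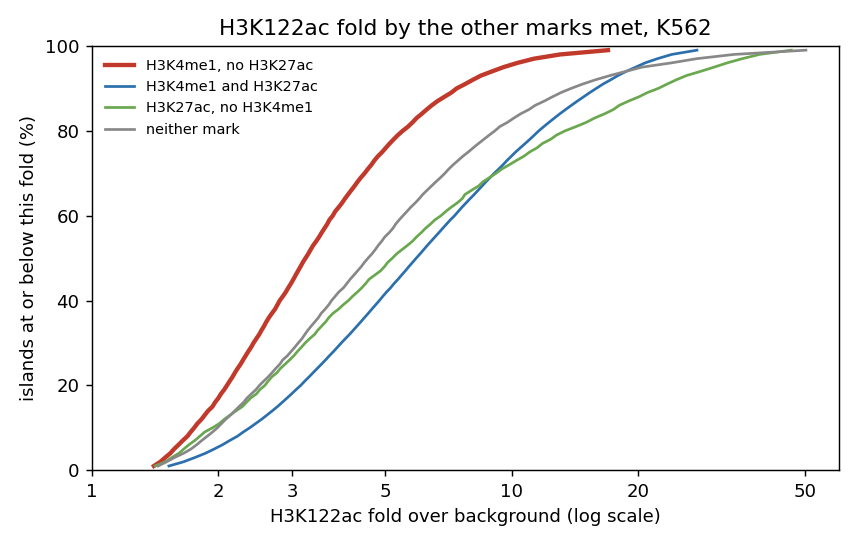
Cumulative share of K562 H3K122ac islands (y axis, percent) at or below a given H3K122ac fold over background (x axis, log scale), for the 4 classes set by the other marks met; percentiles 1 to 99 are drawn. The curve for H3K4me1 without H3K27ac lies left of the others, with its median at 3.23, and the curve for H3K4me1 with H3K27ac has its median at 5.93.

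The islands were also short. Their median length was 1200 bp (middle 50% 800 to 1800 bp), against 2200 bp in islands with both other marks. It was also 1200 bp in islands with H3K27ac alone, and 1000 bp in those with neither. The median island held 59 H3K122ac reads over 71 background reads, where an island with both other marks held 165 over 112. The shortest spanned 200 bp, as did 45 islands in all, and the longest 9400 bp. No H3K122ac island of 10000 bp or more met H3K4me1 without H3K27ac, so the length limit left out none, whereas 1532 islands with both marks were that long. A longer island has more bases in which to meet H3K27ac, so these lengths are partly fixed by the rule.

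Length changed how far the classes stood apart. Among islands of 200 to 600 bp, the median H3K122ac fold was 4.44 with H3K4me1 alone and 4.98 with both marks, a log2 difference of -0.17. Among islands of 1400 to 2000 bp the medians were 2.92 and 5.27, and among those of 4200 to 9800 bp they were 1.95 and 7.50, a log2 difference of -1.94. Islands with H3K4me1 alone thus had lower folds in longer ranges, and islands with both marks had higher ones from 1400 bp on. The share of H3K122ac islands that had H3K4me1 and no H3K27ac was also lower in longer ranges, at 20.3%, 18.5%, 14.8%, 7.35% and 1.53% from the shortest to the longest.

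**Figure D2:**
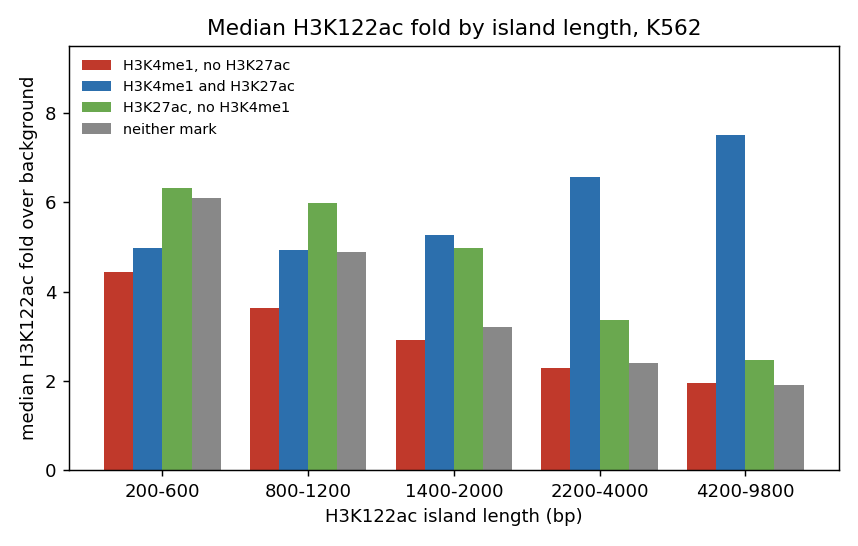
Median H3K122ac fold over background (y axis) in 5 ranges of island length (x axis, bp) for the 4 classes of K562 H3K122ac islands. Bars for H3K4me1 without H3K27ac go down from 4.44 to 1.95 as length grows, and bars for H3K4me1 with H3K27ac stand at 4.98 in the shortest and 7.50 in the longest range.

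Background read density enters every fold. Its median was 58.1 reads per kb in the 8635 islands, 52.7 in islands with both other marks and 45.0 in those with neither. The islands made up 9.81% of the H3K122ac islands in the lowest quartile of background density and 16.8% in the highest. Within the lowest quartile the median H3K122ac fold was 6.20 for H3K4me1 without H3K27ac and 10.8 for both marks, and within the highest it was 2.39 and 3.57. When length range and background quartile were crossed, the median was lower without H3K27ac in 20 of 20 combinations, by log2 differences of -1.85 to -0.10. Against islands with neither mark the picture was different: the median was lower in 7 of the 20 combinations, and the log2 differences ran from -0.36 to 0.16, with as few as 9 islands in a combination. The gap between 3.23 and 4.55 over all islands is thus smaller, or turned round, between islands of like length and background.

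By H3K122ac rank, the islands crowded the lower end of the list. Of the H3K122ac islands with at least 10 background reads, they formed 26.5% (exact Clopper-Pearson 95% interval 25.5 to 27.6%) of the lowest decile of H3K122ac fold, 12% of decile 5 and 1.21% (0.97 to 1.49%) of the highest. The highest decile, with H3K122ac folds of 14.8 or more, nevertheless held 87 of them.

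Single islands are named from the 5338 of the 8635 with at least 50 H3K122ac and 10 background reads, on numbered chromosomes other than 8 and on X, and positions are in hg19. The highest H3K122ac folds among the 5338 were the following. At chr14:74078801-74080200, 133 H3K122ac reads stood over 15 background reads, a fold of 34.3, and the H3K4me1 island there had a fold of 3.38 from 55 reads. At chr15:26095201-26095800, a 600 bp island with 79 reads over 10 had a fold of 30.6 and lay wholly inside an 1800 bp H3K4me1 island with a fold of 3.35. Here an H3K27ac island of 200 bp, with a fold of 7.64, lay 3400 bp away. The next in rank were chr12:121077801-121078400, with a fold of 28.8 from 104 reads over 14, and chr22:51170001-51171200, with a fold of 25.6 from 132 reads over 20. The chromosome 22 island lay 102400 bp from the nearest H3K27ac island, and its H3K4me1 island had a fold of 3.05. These folds rest on 10 to 20 background reads, and the precision of each is limited by that count.

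Ranking by excess reads per kb, which subtracts background instead of dividing by it, brought other islands to the top. The highest was chr2:137181201-137181600, with 85 H3K122ac reads over 27 in 400 bp and a fold of 12.2, inside an 800 bp H3K4me1 island with a fold of 3.50 and 435800 bp from H3K27ac. It was followed by chr1:171614001-171615000, where 216 reads stood over 130 and the fold was 6.43, although H3K4me1 reached only 1.74. At chr1:244014201-244014800 the H3K122ac fold was 21.1 and the H3K4me1 fold 3.44. At chr14:90701201-90702000, 800 bp long, the H3K122ac and H3K4me1 islands had the same ends, with 146 H3K122ac and 66 H3K4me1 reads over 30 background reads and folds of 18.8 and 3.79.

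Over all lengths, H3K4me1 at these islands was close to the level of H3K4me1 islands with no acetylation, and it was slightly higher at like length. The 8635 islands met 8693 H3K4me1 islands, of which 8563 held 1 of them, 126 held 2, and 4 held 3 or more. The 7936 of these H3K4me1 islands that met no H3K27ac had a median H3K4me1 fold of 2.14 (2.13 to 2.17), against 2.12 (2.10 to 2.13) in the 25279 H3K4me1 islands with neither acetylation, 2.37 in the 26740 with H3K27ac and no H3K122ac, and 3.46 (3.44 to 3.47) in the 52092 with H3K122ac and H3K27ac. Their median length of 1600 bp lay between the 1200 bp of islands with neither acetylation and the 3000 bp of islands with both. Background density was 58.3 reads per kb in the 7936, 56.5 with neither acetylation and 50 with both. Among H3K4me1 islands of 1400 to 2000 bp the median H3K4me1 folds were 2.13, 2.02, 2.26 and 3.29 in these 4 groups as listed. The first group was also above the second in the other length ranges. The medians were 2.66 against 2.48 at 200 to 600 bp and 1.74 against 1.69 at 4200 to 9800 bp.

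**Figure D3:**
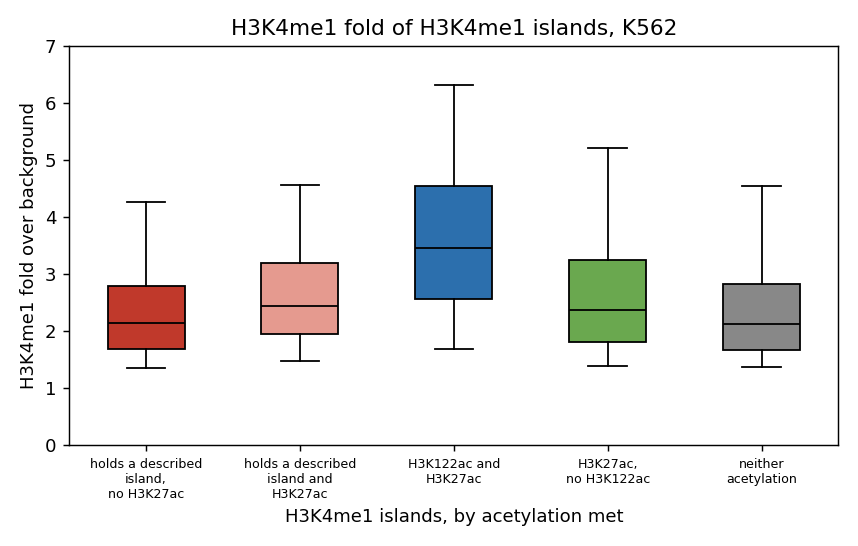
H3K4me1 fold over background (y axis) of K562 H3K4me1 islands grouped by the acetylation they met (x axis); "described island" means an H3K122ac island with H3K4me1 and no H3K27ac, boxes span the middle 50%, lines are medians and whiskers reach percentiles 5 and 95. The boxes for islands holding a described island without H3K27ac (median 2.14) and for neither acetylation (2.12) cover nearly the same range, below that for H3K122ac with H3K27ac (3.46).

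Seen from H3K4me1, 34080 of the 113669 H3K4me1 islands (30%) met no H3K27ac, and 23.3% of those 34080 (22.8 to 23.7%) held one of the H3K122ac islands described here. Without regard to length, that share varied little with H3K4me1 fold, at 22.4%, 23.4%, 25.2% and 22.1% from the lowest to the highest quartile of H3K4me1 fold. These quartiles also differed in median length, at 1800, 1400, 1200 and 1000 bp. Median background density was 70.8 reads per kb in the lowest quartile and 38.9 in the highest. The share by H3K4me1 fold at like length and background was not computed. The share did vary with length, at 15.2% of H3K4me1 islands of 200 to 600 bp, 23.2% of those of 1400 to 2000 bp and 43.5% (40.6 to 46.4%) of those of 4200 to 9800 bp. A longer H3K4me1 island has more bases in which to meet H3K122ac, so this order is partly fixed by the overlap rule. By quartile of background density the share was 21.1% in the lowest and 25.5% in the highest.

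Most H3K4me1 islands behind the 8635 were free of H3K27ac along their whole length and not only under H3K122ac. For 7855 of the 8635 (91.0%, 90.3 to 91.6%), no H3K4me1 island that they met touched H3K27ac at any point. The rule itself clears H3K27ac from the bases shared with H3K122ac, so this share is partly fixed by the choice. The other 780 lay on H3K4me1 islands that also met H3K27ac elsewhere, and those H3K4me1 islands were long, with a median of 5600 bp against 1600 bp. The 780 had a median H3K122ac fold of 2.90, against 3.26 in the 7855, and they lay 1200 bp from the nearest H3K27ac island, against 10600 bp.

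At these islands, where the rule requires a shared base, H3K122ac usually sat within H3K4me1. Coverage at islands with both other marks was not compared. H3K4me1 covered 5261 of the 8635 islands in full (60.9%), and the centres of the islands of the 2 marks lay a median of 300 bp apart. In 50.7% the H3K122ac island lay inside a longer H3K4me1 island, in 10.2% both ends were the same, in 17.5% the H3K4me1 island lay inside a longer H3K122ac island, and in 21.6% the islands overlapped in part. Median H3K122ac folds in these arrangements ran from 3.17 to 3.35. At the edge of the rule, 153 islands shared a single 200 bp window with H3K4me1, with a median length of 400 bp and a median H3K122ac fold of 6.08. Just outside it, 510 islands without H3K27ac missed H3K4me1 by at most 1000 bp, with a median length of 1000 bp and a median fold of 3.64. Coverage below 50% was seen in 745 islands (8.63%).

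The 881 islands with identical ends in both lists let the marks be compared over the same bases and the same background count. Their median H3K122ac fold was 3.24 and their median H3K4me1 fold 2.25, a median log2 ratio of H3K122ac to H3K4me1 fold of 0.60 (0.55 to 0.64). H3K122ac had the higher fold at 762 of the 881 (86.5%). Both marks had to be called here, and the fewest reads in any listed island were 22 for H3K122ac and 28 for H3K4me1. The library ratios were 0.258 and 0.581, so a given read count makes a higher fold for H3K122ac. The part of the calls and library ratios in the log2 ratio was not tested. The 3097 identical islands with H3K27ac had a median H3K122ac fold of 5.93, a median H3K4me1 fold of 3.20 and a median log2 ratio of 0.88 (0.85 to 0.92). The 2 groups also differed in median length, 1000 bp without H3K27ac and 1600 bp with it, and in background, 61.2 and 53.9 reads per kb, which enters both folds; the part of background was not tested. Among identical islands of 800 to 1200 bp, the median H3K122ac fold was 3.39 without H3K27ac and 6.13 with it, and the median H3K4me1 fold was 2.31 and 3.17. The ratio was smaller without H3K27ac in each of 3 length ranges, at 0.77 against 0.93 for 200 to 600 bp, 0.64 against 1.01 for 800 to 1200 bp, and 0.46 against 0.85 for 1400 to 2000 bp. Across the 881 islands the folds of the 2 marks had a Spearman rho of 0.61, but they share a background count. The rho of reads per kb, which share only position and length, was 0.44.

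**Figure D4:**
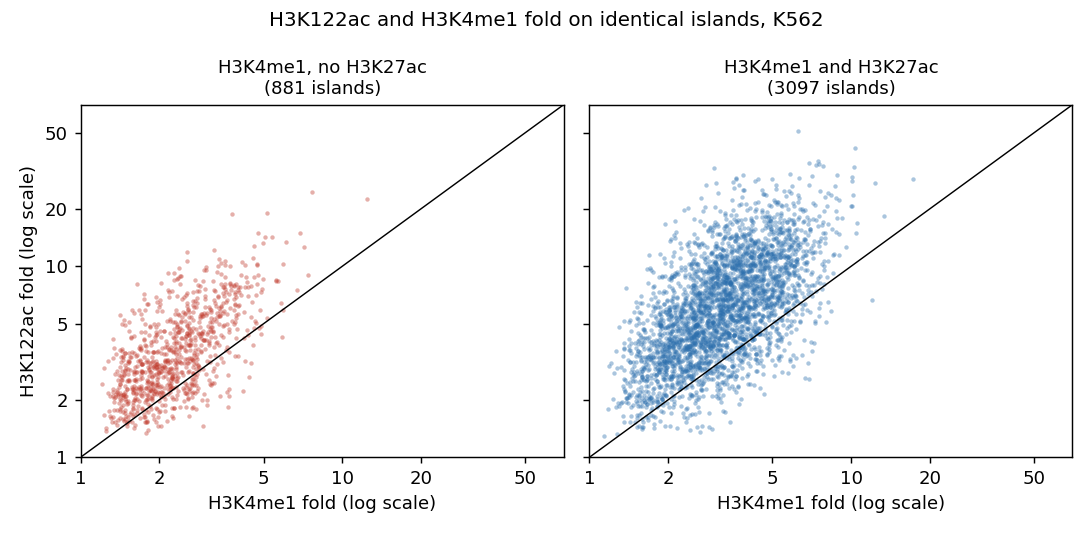
H3K122ac fold (y axis) against H3K4me1 fold (x axis), both log scales, for K562 islands with the same ends in the 2 lists, left without H3K27ac (881 islands) and right with it (3097 islands); each point is an island and the line marks equal folds. Most points lie above the line, 86.5% on the left and 89.7% on the right, and the right-hand cloud reaches higher folds of both marks.

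Over all 8635 islands, those with the stronger H3K4me1 also had the higher H3K122ac fold. The median H3K122ac fold was 2.46 in the lowest quartile of H3K4me1 fold and 5.03 in the highest. H3K122ac reads per kb differed far less, at 46.7 and 51.2, whereas background density was 72.5 reads per kb in the lowest quartile and 39.3 in the highest. Background counts enter the folds of both marks, and their part in this order was not tested.

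The highest H3K4me1 fold among the 5338 was found at chrX:46430401-46431400, with an H3K4me1 fold of 9.24 from 59 reads over 11 and an H3K122ac fold of 20.5. It was followed by chr3:152948401-152950600, with 8.83 for H3K4me1 and 11.8 for H3K122ac, and chr4:4030201-4035200, with 8.69 and 14.6. The chromosome 3 island lay 1000 bp from a weak H3K27ac island with a fold of 1.40, and the chromosome 4 island lay 210000 bp from any. The lowest H3K4me1 folds among the 5338 lay at chr22:19738001-19746000 and chr22:19146001-19148400, with H3K4me1 folds of 1.12 and 1.13 and H3K122ac folds of 1.88 and 1.98, and at chr1:212798401-212800600, with 1.13 for H3K4me1 and 3.82 for H3K122ac. Their H3K4me1 islands held 618 to 1085 background reads.

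Some H3K4me1 islands carried several separate H3K122ac islands. The one with most was chr6:7911201-7922800, 11600 bp long with an H3K4me1 fold of 2.33 and no H3K27ac. Its 4 H3K122ac islands were chr6:7911201-7912000 with a fold of 8.35, chr6:7913001-7914000 with 1.77, chr6:7915201-7917200 with 3.37 and chr6:7919801-7922200 with 1.76. The H3K4me1 islands chr1:236922401-236926800 and chr6:36665201-36673600 carried 3 each, with H3K122ac folds of 2.08 to 4.24 on the chromosome 1 island and 1.35 to 2.09 on the chromosome 6 island. H3K27ac met none of these 3 H3K4me1 islands. Separate H3K122ac islands on one H3K4me1 island thus differed in fold.

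Distance from H3K27ac ranged widely. The median island lay 8800 bp (8400 to 9200 bp) from the nearest H3K27ac island, against 19400 bp for islands with neither mark. Of the 8635, 416 (4.82%) lay within less than 1000 bp, 2713 (31.4%) from there to 5000 bp, 2898 (33.6%) up to 20000 bp, 1484 (17.2%) up to 50000 bp and 1124 (13.0%) at 50000 bp or more. Among islands with neither mark, 28.4% were at 50000 bp or more. The median H3K122ac fold was 2.86 in the nearest group and 3.94 in the farthest, with background of 57.5 and 55.0 reads per kb, and islands with neither mark showed the same order, at 3.43 in the nearest group and 5.66 in the farthest. H3K4me1 fold showed no such order, at 2.36 in the nearest group, 2.09 at 5000 to 20000 bp and 2.27 in the farthest.

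An H3K27ac island was touched by 3 of the islands without sharing a base. One of them, chr15:41165401-41166800, had an H3K122ac fold of 16.9 from 135 reads over 31 and an H3K4me1 fold of 4.19, and it began where an H3K27ac island of fold 1.49 ended. At chr1:223306401-223308400 the H3K122ac fold was 2.23, and the adjoining H3K27ac island had a fold of 1.32. The next nearest that had enough reads to be named, chr7:56072401-56073200, had a fold of 11.6 and lay 200 bp from H3K27ac. The 645 islands inside the rule with H3K27ac at 1000 bp or less had a median H3K122ac fold of 2.87, at a median of 1200 bp in length. On the other side of this limit, 360 H3K122ac islands with H3K4me1 shared a single 200 bp window with H3K27ac and were left out, with a median H3K122ac fold of 5.37, at a median of 800 bp in length. Of the 5338, the farthest from H3K27ac were chr16:33619001-33619600, at 1724600 bp with an H3K122ac fold of 4.57, chr7:68190001-68190600, at 1269800 bp with 7.31, and chr1:98386001-98387200, at 1093800 bp with 9.68.

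How weak an H3K27ac signal could have escaped the call depends on length and background. At the middle 50% of background density in the 8635 islands, 42.5 to 76.1 reads per kb, H3K27ac islands of 1200 bp were called down to a fold of 1.31, with 5% of them at 1.41 or less. For 400 bp the lowest was 1.55 and for 2000 bp 1.24. These are the lowest folds of any called island across this range of background, so H3K27ac above them could also be missed at some islands. A missing island thus does not show that the mark is absent. H3K27ac islands were also joined across gaps of 200 bp, against 600 bp for the other marks, and the part of this was not tested. Where H3K27ac islands counted only at a fold of 2 or more, 19013 H3K122ac islands met the rule in place of 8635.

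For 24.6% (23.7 to 25.6%) of them the nearest other H3K122ac island also had H3K4me1 and no H3K27ac, against 11.5% of all H3K122ac islands and 8.47% of islands with both other marks. For a further 56.2% the nearest one carried both other marks, where 75.3% of all H3K122ac islands had such a neighbour. The median distance to the next H3K122ac island was 5600 bp, against 3200 bp for islands with both marks and 11000 bp for those with neither. In order along the chromosomes, 5067 of the 8635 stood alone between H3K122ac islands of other classes, 2182 stood in runs of 2, and 18 in 3 runs of 6.

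By chromosome, the share of H3K122ac islands with H3K4me1 and no H3K27ac was highest on chromosome 21, at 14.8% (12.7 to 17.1%) of 1036, and chromosome 18, at 14.2% (12.4 to 16.1%) of 1455. It was lowest on chromosome 22, at 9.10% (7.66 to 10.7%) of 1417, and chromosome 14, at 9.21% (8.01 to 10.5%) of 2118. Background density of the islands was 72.2 and 52.6 reads per kb on chromosomes 21 and 18, and 40.0 and 38.8 on chromosomes 22 and 14, and its part in the order was not tested. The median H3K122ac fold was lower than that of islands with both other marks on 23 of 23 chromosomes, by log2 differences of -1.27 on chromosome 19 to -0.72 on X.

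**Figure D5:**
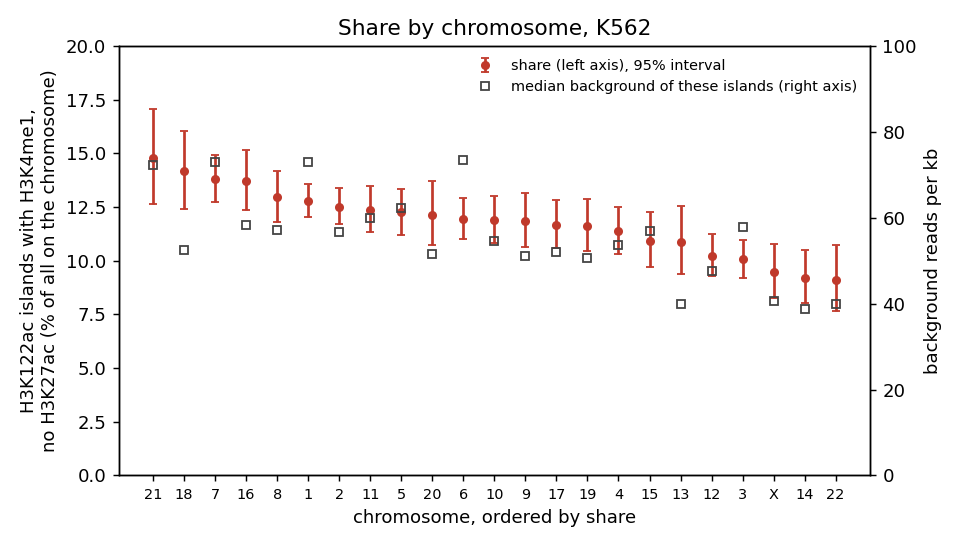
Share of K562 H3K122ac islands with H3K4me1 and no H3K27ac on each chromosome (filled circles, left axis, percent, with exact 95% intervals for counting error) and the median background density of those islands (open squares, right axis, reads per kb), ordered by share. Shares run from 14.8% on chromosome 21 to 9.10% on chromosome 22, where background is 72.2 and 40.0 reads per kb.

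Within chromosomes, 1990 of the 2576 bins of 1 Mb with any H3K122ac island held at least one of the islands, with a median of 3. Bins with 10 or more numbered 162 and held 1958 of the 8635. The share of all H3K122ac islands in those bins was not compared, so the count does not tell clustering from bins rich in H3K122ac. The fullest bin was chr7:156000001-157000000, with 23 among 56 H3K122ac islands and H3K122ac folds of 1.34 to 5.83, at a median background over all its H3K122ac islands of 81.7 reads per kb. Next came chr17:48000001-49000000, with 20 among 90 and folds of 1.5 to 12, and chr6:164000001-165000000, with 19 among 45 and folds of 1.51 to 6.06.

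The longest of the 5338, chr6:36742801-36752200, spanned 9400 bp with an H3K122ac fold of 1.29 and an H3K4me1 fold of 1.26, followed by chr21:44864001-44873200, at 3.04, and chr22:19597801-19607000, at 1.48, each of 9200 bp. On the chromosome 21 island H3K4me1 covered 19.6% of the length. Background was densest at chr9:133883401-133890400, with 249 reads per kb and a fold of 2.07 from 934 reads, and at chr7:130809001-130809800 and chr22:22461001-22469000, with 206 and 199 reads per kb and folds of 1.88 and 2.02.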

How the data were processed

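Per the submitters' processing notes, Bowtie 0.12.8, HOMER 4.3 and SICER 1.1 were used, with no role stated, and the human build was hg19. Per the names of the deposited lists, islands were joined from 200 bp windows at a false discovery rate of 0.01, with gaps of 200 bp for H3K27ac and 600 bp for H3K122ac and H3K4me1, from 1 library each. Deposited lists give whole-number read counts of ChIP and background, not normalized, in each island. They also give the authors' p-value and q-value against background, and the authors' fold, a ratio of both counts divided by a constant per list. The sources do not name the library used as background. Total library depth is unknown; reads inside islands are given.

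Overlaps, distances and medians were computed with Python 3.11.15, numpy 2.4.6, pandas 2.3.3 and scipy 1.17.1, and the code was tested on simulated islands. The islands met had to share at least 1 bp. Intervals are 95% exact binomial and cover counting error only. Excess reads per kb are ChIP reads divided by the library ratio, minus background reads, per kb. Where an island met several H3K4me1 islands, the one sharing most bases was used.

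Named islands were the extremes of fold, excess, H3K4me1 fold, distance, length and background, of H3K4me1 islands by number carried and of 1 Mb bins and chromosomes, on numbered chromosomes other than 8 and on X. Single islands needed at least 50 ChIP and 10 background reads, which 5338 on those chromosomes had. The members and lists were chosen with earlier results of these data known. No annotation of hg19 was used here, so islands were not assigned to genes.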

Additional observations from a re-analysis of the deposited data

How the results depend on the processing

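The 7 summary values were recomputed under 11 alternatives, giving 77 values. Of these, 44 stayed inside the interval of the value reported, or within 1.5 times it for the count. Only the log2 difference could change sign, and it stayed negative under all 11 alternatives. Requiring 50% of the island covered by H3K4me1, joining H3K27ac across 600 bp, dropping the length limit and keeping numbered chromosomes only moved none of the 7. Joining H3K27ac and dropping the length limit left the same 8635 islands, so values of these islands alone could not move. Joining islands already called is also not a new call with a 600 bp gap. The median percent covered by H3K4me1 was 100 under every alternative. The 44 values include these, so that count says little on robustness. Below, values are the count, the median H3K122ac fold, its log2 difference from islands with all 3 marks, the median H3K4me1 fold and the percent on H3K4me1 islands free of H3K27ac. An H3K122ac fold of 3 or more gave 4787, 4.66, -0.62, 2.47 and 92.2%, with a median distance to H3K27ac of 10800 bp. H3K27ac counted only from a fold of 2 gave 19013, 3.11, -1.21, 2.24 and 89.6%. An H3K4me1 fold of 2 or more gave 5081, 3.91, -0.72, 2.68 and 88.8%. At least 50 ChIP and 10 background reads gave 5590, 3.28, -0.97, 2.12 and 91.6%. With a q-value of at most 1e-10 in all 3 lists, the fold was 4.24, the difference -0.84, the H3K4me1 fold 2.73, the percent 89.3% and the distance 10200 bp. Excluding H3K27ac within 1000 bp gave 94.7% and 10200 bp. Excluding it within 5000 bp gave 5419 islands, 3.38, -0.81, 99.9% and 18800 bp. Each of these alternatives drops or adds islands by construction. No paired analysis was possible because each K562 mark has 1 library. Total library depth is unknown, and no value has a replicate.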

Other observations

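The longest runs of consecutive H3K122ac islands that all had H3K4me1 and no H3K27ac, chosen after their values were seen, each held 6 islands. One spanned 57800 bp at chr6:164087801-164145600 (hg19), with H3K122ac folds of 1.54 to 2.75. It lies in one of the 3 bins of 1 Mb that held most of these islands. The others were chr2:170143001-170297000, spanning 154000 bp with folds of 1.92 to 7.51, and chr6:13068801-13253800, spanning 185000 bp with folds of 1.52 to 4.22. Their median background densities were 75.8, 76.2 and 93.8 reads per kb, above the median of 58.1 over the 8635 islands.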
